A study of Arabidopsis thaliana with 6 samples.

Results

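The 10 genes described here are markers of carbon starvation and enzymes of branched-chain amino acid breakdown in Arabidopsis thaliana. They were chosen by identifier from the 32833 genes of the deposited table. All 10 passed the low-count filter that left 20169 genes for testing, DIN2 only by its phod2 libraries. They are the dark-inducible and starvation markers ASN1, SEN1, DIN10 and DIN2, and the breakdown genes BCAT2, DIN4, BCE2, IVD, MCCA and MCCB. RNA of 8-day-old seedlings was sequenced from wild-type (WT) plants and from the phod2 mutant, with 3 libraries each that the study calls biological replicates. The title of the series names a plastidial lipoyl synthase, LIP1p, and phosphate homeostasis, and the comparison asks how transcripts differ in the mutant. The sample descriptions and the table name the phod2 libraries LIP1. The labels give neither the ecotype, nor the kind of change that phod2 carries, nor how many seedlings made a library, nor which phosphate supply, high or low, a library had.

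When a plant cell runs short of sugar, the kinase SnRK1 and the bZIP factors it acts on switch on genes that were first found in darkened leaves. Their products move nitrogen into asparagine, break down stored compounds and feed the carbon skeletons of amino acids to respiration. Leucine, isoleucine and valine lose their amino group to a branched-chain aminotransferase, and the 2-oxo acids are then decarboxylated in the mitochondrion by a dehydrogenase complex built from E1, E2 and E3 subunits. The E2 subunit carries a lipoyl group, the cofactor that lipoyl synthases complete. For leucine, isovaleryl-CoA dehydrogenase and the biotin enzyme methylcrotonoyl-CoA carboxylase follow, and electrons pass through the flavoprotein ETF to ubiquinone.

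The libraries held 17319308 to 22417595 counted reads. LIP1P (AT5G08415), the plastid lipoyl synthase gene, had FPKM (fragment counts scaled to exon length and library total) of 22.3, 20.9 and 23.2 in WT and 14.0, 14.2 and 12.9 in phod2. Those groups did not overlap, and LIP1P stood at -0.74 ± 0.06 (SE) on the log2 scale in phod2. Of the marker lists for cell types of the seedling, 7 of 9 root endodermis genes and 7 of 7 root hair genes fell, with median log2 fold changes of -1.96 and -1.87, while 4 of 7 leaf photosynthesis genes rose and 1 fell, with a median of 0.07. Over all tested genes 24.6% fell and 20.9% rose. The other 2 endodermis genes had positive log2 fold changes, the higher 0.65, and did not pass the test. The summed FPKM of the lists ran from 107 to 116 in WT against 42.9 to 45.8 in phod2 for the endodermis, 38.6 to 45.3 against 12.6 to 13.7 for the root hair, and 28747 to 28925 against 29767 to 30065 for the leaf list. No marker was at 0 in a library. Fewer cells of a type and less RNA per cell cannot be told apart in RNA of seedlings, and the part of these marker changes in the results below was not tested.

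The 10 genes did not move as one group in phod2. ASN1, SEN1, DIN2 and BCAT2 rose by about 2-fold or more, DIN4, MCCA and MCCB rose by 11% to 22%, DIN10 and IVD fell, and BCE2 did not pass the test. These are edgeR folds after TMM scaling between libraries. FPKM lack that scaling, and FPKM ratios of phod2 to WT come out slightly higher. By the quasi-likelihood test of edgeR with Benjamini-Hochberg adjustment over all tested genes, 9 of the 10 passed an adjusted p of 0.05, where 45.5% of all tested genes did, 7 of them higher (20.9% of all genes) and 2 lower (24.6%). At the rule stated by the study, which adds a change of at least 2-fold, 3 were called higher and 0 lower, against 1.79% and 5.72% of all genes, or 7.51% in either direction. That count of 0 was the same in edgeR and DESeq2, and the 2 that fell by less, DIN10 and IVD, also had an unadjusted p under 0.05. WT and phod2 libraries did not overlap for 9 of the 10 genes, 7 higher and 2 lower, and for 54.3% of all tested genes, 30.9% higher and 23.4% lower. Overlap was read from counts over library totals without TMM. Its shares of higher and lower genes are therefore not on the scale of the calls above. The median log2 fold change of the 10 was 0.25, beside 0.01 over all tested genes.

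**Figure D1:**
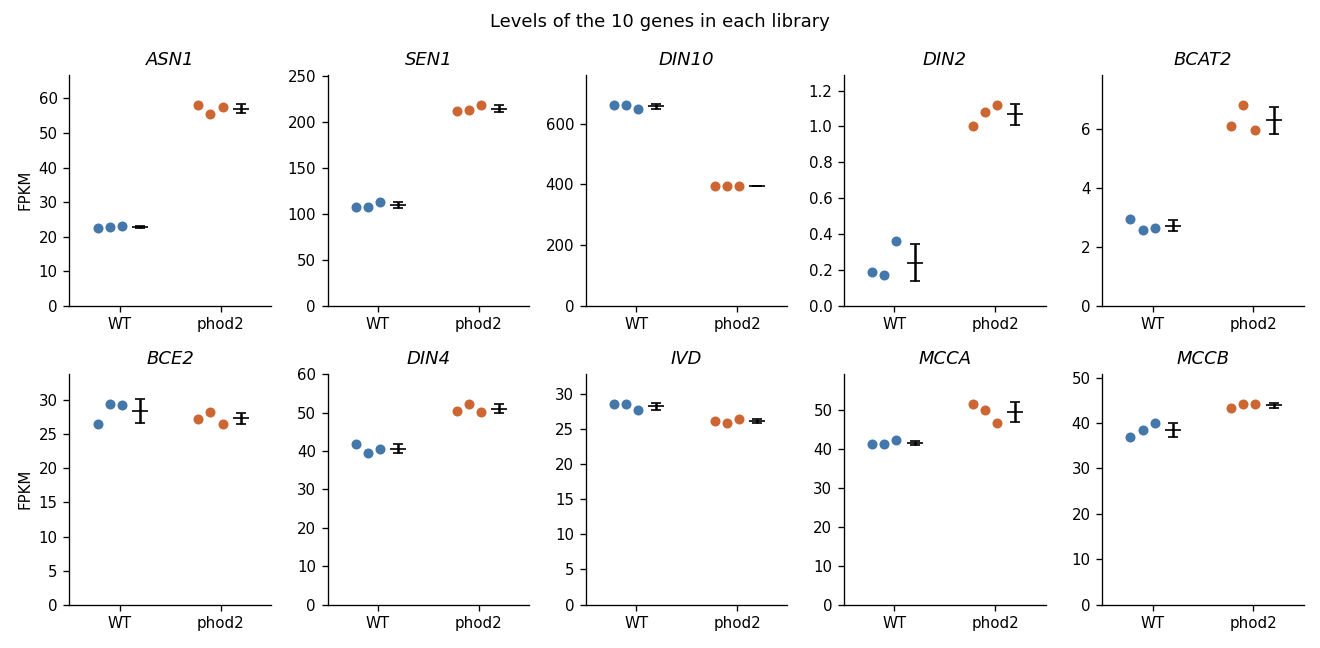
FPKM of the 10 genes in each library (points: 3 WT and 3 phod2 libraries; bars beside them: mean ± SD, n = 3), each panel with its own axis from 0. The groups overlap only for BCE2; DIN10 is the most abundant and DIN2 the least abundant in both genotypes.

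ASN1 (AT3G47340, chromosome 3, positions 17437840 to 17441431, minus strand; all coordinates are those of TAIR10.1), the asparagine synthetase of darkness and sugar shortage, was higher in phod2. Its FPKM were 22.4, 22.9 and 23.2 in WT against 58.1, 55.5 and 57.4 in phod2. Each phod2 library was more than 2-fold above any WT library. Mean ASN1 was 22.8 ± 0.375 FPKM in WT and 57.0 ± 1.33 in phod2 (SD over 3 libraries). ASN1 had a log2 fold change of 1.28 ± 0.04 (SE, adjusted p = 4.5e-38, edgeR), and 1.13% of all tested genes had a larger one. The annotation gives 4 transcripts of 5 to 10 exons for ASN1, and its nearest relative among other transcripts was 72.6% identical. ASN2, another asparagine synthetase gene, rose from a mean of 89.9 ± 1.40 to one of 115.2 ± 3.65 FPKM, by 0.32 ± 0.03 on the log2 scale, while ASN3 stood at -0.13 ± 0.06 (adjusted p = 0.0595). ASN1 made up 17.3% to 18.1% of the summed FPKM of ASN1, ASN2 and ASN3 in the WT libraries and 29.8% to 31.3% in the phod2 libraries.

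In the list of 9 other asparagine and glutamine genes, which holds ASN2 and ASN3, 2 rose, 4 fell and 3 did not pass, where 20.9% of all tested genes rose and 24.6% fell. Its median log2 fold change was -0.13, beside 0.01 over all genes, and -0.08 by limma on log2(FPKM + 1). Of the 4 genes that fell, 2 did so by the 2-fold rule, as did 5.72% of all tested genes. Both were low in WT, and the larger fall was -1.34 on the log2 scale. The cytosolic glutamine synthetase gene GLN1;1, whose product fixes ammonium into glutamine, fell from 68.5 ± 1.31 to 44.1 ± 1.10 FPKM (log2 fold change -0.68 ± 0.04). Its relative GLN1;2 (GSR2) fell from 401.8 ± 5.86 to 317.7 ± 7.85 FPKM (-0.38 ± 0.02).

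SEN1 (AT4G35770, chromosome 4, positions 16944878 to 16946266, plus strand), a marker of darkness and senescence that the deposited table names STR15, nearly doubled. Its FPKM were 107, 108 and 113 in WT against 212, 214 and 219 in phod2. The groups stood far apart, and the log2 fold change of 0.93 ± 0.03 (adjusted p = 2.0e-35, edgeR) remained just short of the 2-fold rule. No other gene overlaps SEN1 or has a near-identical transcript.

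DIN2 (AT3G60140, chromosome 3, positions 22216540 to 22220824, plus strand), which encodes the beta-glucosidase BGLU30, rose from a very low level. The WT libraries held 10, 7 and 18 DIN2 reads and the phod2 libraries 42, 49 and 55. In FPKM these were 0.19, 0.17 and 0.36 against 1.00, 1.08 and 1.12. All phod2 libraries lay above all WT libraries. The log2 fold change was 2.08 ± 0.29 (adjusted p = 1.4e-08, edgeR), the widest error of the 10 genes, and fell to 0.74 by limma on log2(FPKM + 1), where the pseudocount exceeds the WT level. Only 0.74% of tested genes had a lower WT level than DIN2. DIN2 met the low-count filter in every phod2 library but not in every WT library. Its place among the tested and called genes thus depends on the group where it is high.

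DIN10 (AT5G20250, chromosome 5, positions 6833564 to 6836862, plus strand), a gene of the raffinose synthase family, fell although it belongs with the dark-inducible genes. Its FPKM were 662, 660 and 649 in WT against 394, 395 and 396 in phod2. The phod2 libraries were within 3 FPKM of each other and all below WT. The log2 fold change of -0.78 ± 0.02 (adjusted p = 6.5e-40, edgeR) had the smallest error of the 10 genes, and DIN10 lay above 99.6% of tested genes in WT level. The sum over the 10 genes, of which DIN10 was the most abundant, was 968 to 971 FPKM in WT and 870 to 873 in phod2.

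Another raffinose synthase family gene, SIP2 (AT3G57520, RFS2 in the deposited table), moved opposite to DIN10. Mean SIP2 was 300.7 ± 1.94 FPKM in WT and 463.3 ± 1.81 in phod2, higher by 0.58 ± 0.02 on the log2 scale (adjusted p = 2.0e-32, edgeR). The ratio of DIN10 to SIP2 was 2.19, 2.20 and 2.17 in WT and 0.850, 0.849 and 0.858 in phod2, so DIN10 was the more abundant of the pair in every WT library and SIP2 in every phod2 library. DIN10 took 67.3% to 67.7% of the summed FPKM of the 5 family members in WT and 45.3% to 45.6% in phod2. The remaining members, SIP1 (-0.37 ± 0.10), AT5G40390 (-0.51 ± 0.07) and the stachyose synthase gene STS (-0.59 ± 0.24, adjusted p = 0.0398), fell from low levels of 0.647 to 9.76 FPKM. STS missed the threshold in 8 of 14 alternatives, among them DESeq2 (adjusted p = 0.119) and the fits without WT replicate 2 or 3 or phod2 replicate 1 or 2 (adjusted p = 0.0815, 0.178, 0.0853 and 0.171).

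BCAT2 (AT1G10070, chromosome 1, positions 3288087 to 3290471, plus strand) encodes a branched-chain aminotransferase that the table annotates as chloroplastic, the enzyme type of the first breakdown step. Its FPKM were 2.93, 2.57 and 2.64 in WT against 6.09, 6.80 and 5.94 in phod2. The lowest phod2 library was about double the highest WT library. The log2 fold change was 1.16 ± 0.12 (adjusted p = 1.5e-12, edgeR), and 0.97, under 2-fold, by limma on log2(FPKM + 1). The neighbouring gene AT1G10090 on the opposite strand overlaps BCAT2 over 6.75% of its length with a mean count of 759.5 and a log2 fold change of -0.12. Since the use of strand in counting is not given in the sources used here, reads of the 2 genes cannot be told apart there.

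BCAT1 (AT1G10060) lies just upstream of BCAT2 on the same strand and did not pass the test. BCAT1 stood at 3.94 ± 0.262 FPKM in WT and 3.77 ± 0.227 in phod2 (log2 fold change -0.10 ± 0.10, adjusted p = 0.432, edgeR). The BCAT2 to BCAT1 ratio was 0.749, 0.609 and 0.713 in WT and 1.55, 1.76 and 1.69 in phod2, so the order of the pair changed between the genotypes. BCAT1 and BCAT2 transcripts align at 67.2% identity.

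**Figure D2:**
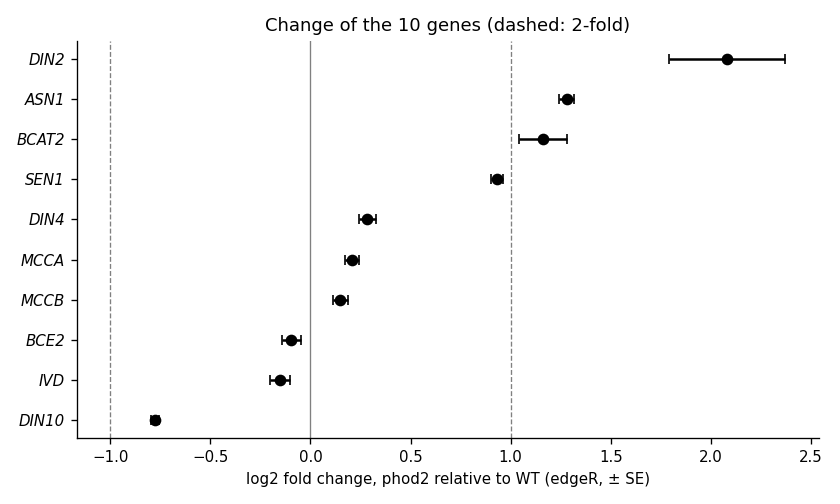
Log2 fold change of the 10 genes in phod2 relative to WT with its standard error, from edgeR over 6 libraries; dashed lines mark a 2-fold change. DIN2, ASN1 and BCAT2 lie past 2-fold, SEN1 just inside it at 0.93, and DIN10 at -0.78 on the opposite side.

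The branched-chain dehydrogenase complex, which commits the 2-oxo acids to breakdown, changed unevenly among its subunits. DIN4 (AT3G13450, chromosome 3, positions 4382198 to 4384436, minus strand), which encodes an E1 beta subunit, had 42.0, 39.5 and 40.5 FPKM in WT and 50.6, 52.4 and 50.2 in phod2. These groups did not overlap, and DIN4 stood at 0.28 ± 0.04 on the log2 scale (adjusted p = 1.5e-07, edgeR). AT1G55510, the gene of the other E1 beta subunit, stood at 12.8 ± 0.514 and 13.6 ± 0.676 FPKM (0.04 ± 0.07, adjusted p = 0.653), with 11.3% of its length overlapped by AT1G55520 on the opposite strand.

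BCE2 (AT3G06850, chromosome 3, positions 2157908 to 2160669, minus strand), the lipoyl-bearing E2 subunit, was the gene of the 10 that did not pass the test. Its FPKM were 26.5, 29.5 and 29.4 in WT against 27.3, 28.3 and 26.6 in phod2. The groups overlapped, with WT replicate 1 the lowest library of all. The log2 fold change was -0.10 ± 0.05 (adjusted p = 0.1, edgeR), and -0.15 (adjusted p = 0.0171) without WT replicate 1. The ratio of DIN4 to BCE2 ran from 1.34 to 1.58 in WT and from 1.85 to 1.89 in phod2.

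The pair of E1 alpha genes moved in opposite directions. AT1G21400 had 5.21, 5.27 and 6.26 FPKM in WT and 9.13, 8.95 and 9.13 in phod2, a log2 fold change of 0.66 ± 0.07 (adjusted p = 1.8e-11, edgeR). AT5G09300 had 6.76, 6.69 and 6.31 FPKM in WT and 4.30, 4.10 and 4.46 in phod2, a change of -0.66 ± 0.10 (adjusted p = 1.3e-07). AT5G09300 was the higher of the pair in each WT library and AT1G21400 in each phod2 library. AT1G21400 is 95.9% identical to AT5G34780 over 31.2% of a transcript, and AT5G34780 had no counted read, so the value of AT1G21400 is uncertain where reads match both. The E3 genes, which this complex shares with other dehydrogenases, were at 0.13 ± 0.02 for MTLPD1 and -0.22 ± 0.03 for MTLPD2.

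In all, 7 ratios between related genes or subunits were computed, with pairs chosen after the values were seen. For 6 of them the groups did not overlap, which gives p = 0.1 in a 2-sided exact permutation test, the smallest that 3 against 3 libraries allow (0.117 after Benjamini-Hochberg adjustment over the 7).

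**Figure D3:**
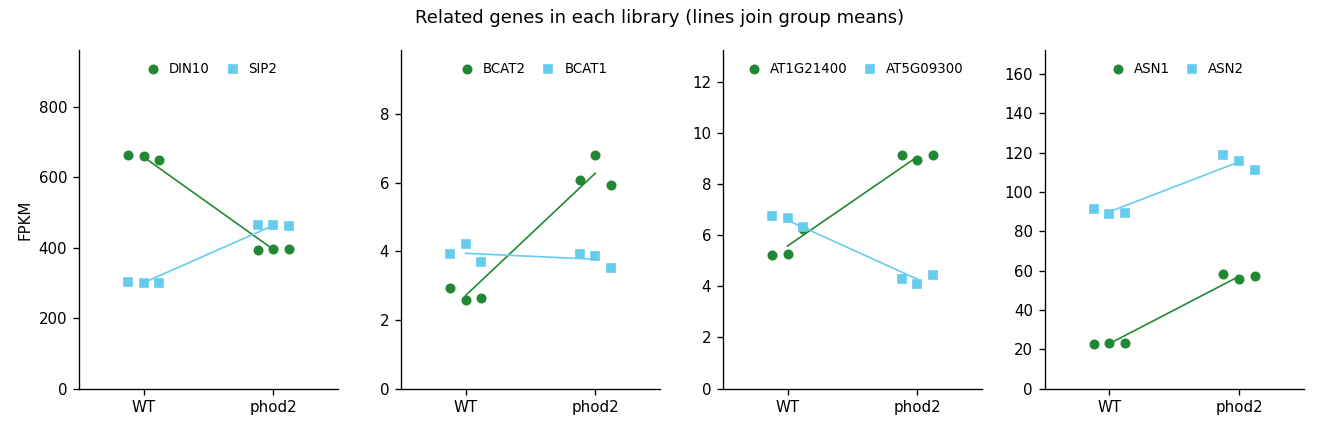
FPKM of pairs of related genes in each library (points, 3 libraries a group; lines join group means). DIN10 and SIP2, BCAT2 and BCAT1, and the E1 alpha genes AT1G21400 and AT5G09300 change order between WT and phod2; ASN1 stays below ASN2 in all 6 libraries.

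The IVD and methylcrotonoyl-CoA carboxylase steps of leucine breakdown changed little. IVD (AT3G45300, chromosome 3, positions 16621452 to 16625043, minus strand), which oxidises isovaleryl-CoA, had 28.6, 28.5 and 27.7 FPKM in WT and 26.1, 25.8 and 26.4 in phod2. The groups were separate by a narrow margin. IVD fell by 0.15 ± 0.05 on the log2 scale (adjusted p = 0.009, edgeR), and missed the threshold when libraries were scaled by their totals alone (adjusted p = 0.0574).

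MCCA (AT1G03090, chromosome 1, positions 739544 to 744184, plus strand), the biotin-bearing alpha subunit of methylcrotonoyl-CoA carboxylase, had 41.1, 41.2 and 42.3 FPKM in WT and 51.6, 50.1 and 46.6 in phod2. MCCB (AT4G34030, chromosome 4, positions 16301027 to 16304099, plus strand), the beta subunit, had 36.9, 38.5 and 40.0 FPKM in WT and 43.2, 44.1 and 44.2 in phod2. Both subunits were higher in every phod2 library. The log2 fold change was 0.21 ± 0.03 for MCCA and 0.15 ± 0.04 for MCCB (adjusted p = 1.1e-06 and 8.5e-04, edgeR). The MCCA to MCCB ratio was 1.08 ± 0.0312 in WT and 1.13 ± 0.0708 in phod2 (SD, n = 3 each, 2-sided exact permutation p = 0.4), and the groups overlapped. MCCA is overlapped over 11.3% of its length, mainly by AT1G03100 on the opposite strand, which had a mean count of 49.8 and a log2 fold change of 0.38.

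In WT the order of the levels was DIN10, SEN1, MCCA, DIN4, MCCB, BCE2, IVD, ASN1, BCAT2 and DIN2. The WT libraries of MCCA and DIN4, of DIN4 and MCCB, and of BCE2 and IVD overlapped, so these neighbours did not differ beyond their spread. In phod2 ASN1 followed DIN10 and SEN1 and stood above DIN4 and MCCA, whose libraries again overlapped each other.

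Among 11 other genes of branched-chain breakdown 4 rose, 2 fell and 5 did not pass, where 20.9% of all tested genes rose and 24.6% fell. Their median log2 fold change was 0.13, and 0.07 without WT replicate 2. Of the 4 genes that pass electrons to ubiquinone, ETFQO, the oxidoreductase that hands them to ubiquinone, rose from 21.7 ± 0.752 to 26.0 ± 0.929 FPKM (0.22 ± 0.05), and the other 3 did not pass. For breakdown of other amino acids, 12 of 13 genes were tested, 2 rose and 5 fell, beside the same 20.9% and 24.6% of all genes. The median of that list, -0.05, was -0.09 without phod2 replicate 3, near 0 without WT replicate 2 and 0.02 without phod2 replicate 1, so it has no stable sign. AT4G33150, the bifunctional enzyme that starts lysine breakdown, fell from 14.9 ± 0.305 to 9.61 ± 0.275 FPKM (-0.67 ± 0.05). PRODH1, which starts proline breakdown, fell by 0.21 ± 0.02 on the log2 scale, and the glutamate dehydrogenase gene GDH1 rose by 0.38 ± 0.04. PRODH2, a relative of PRODH1 named after its values were seen, fell by more (-0.99 ± 0.16) from 2.90 to 1.52 FPKM. In the opposite pathway, synthesis of branched-chain amino acids in the plastid, 9 of 15 genes rose and 1 fell, all by small steps (median 0.08, range -0.21 to 0.29). The acetolactate synthase small subunit AT2G31810 stood at 0.29 ± 0.03, the 2-isopropylmalate synthase gene IPMS1 at 0.16 ± 0.03 and the isopropylmalate dehydrogenase gene IMD1 at -0.21 ± 0.03.

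Most genes of a separate list of 19 carbon starvation and dark-response genes went down in phod2. It holds none of the 10 genes, so the markers ASN1, SEN1 and DIN2, which rose, are not counted in it. The list was chosen with earlier results of these data known. No gene of it rose, 16 fell and 3 did not pass, where 20.9% of all tested genes rose and 24.6% fell. The median log2 fold change was -0.32, on the other side of 0 from the median of 0.25 for the 10 genes. AT3G15450 fell from 1361 ± 8.03 to 846 ± 15.2 FPKM (-0.73 ± 0.02). The monosaccharide transporter gene STP1 fell from 224.8 ± 4.12 to 156.6 ± 3.44 FPKM (-0.56 ± 0.02). The largest fall in the list was that of GAT1_2.1, a glutamine amidotransferase gene, from 9.04 ± 0.946 to 2.95 ± 0.218 FPKM (-1.65 ± 0.12). A name taken from carbon starvation thus does not describe these genes as a whole in these libraries. ASN1, SEN1, DIN2 and BCAT2 rose, while DIN10 and most genes of the separate list fell.

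All 5 genes of a short list of sugar-induced genes rose, where 20.9% of all tested genes rose and 24.6% fell. The large-subunit genes of starch-forming ADP-glucose pyrophosphorylase, APL3 and APL4, rose by 0.51 ± 0.09 and 0.65 ± 0.11 on the log2 scale, and the beta-amylase gene BAM5 by 2.36 ± 0.25. GPT2 (1.96 ± 0.36) and TPS5 (0.28 ± 0.07), named after their values were seen, complete the list. Their levels were low, with BAM5 at 0.267 and GPT2 at 0.21 FPKM in WT, and by limma on log2(FPKM + 1) BAM5 stood at 0.95 and GPT2 at 0.59. The summed FPKM of the 5 genes was 14.7 to 16.0 in WT and 22.4 to 25.0 in phod2. BAM5 and GPT2 met the low-count filter in every phod2 library but not in every WT library.

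Of 9 bZIP factors of the C and S1 groups, regulators of the starvation response, 2 rose, 3 fell and 4 did not pass. These counts lie near the 20.9% and 24.6% of all tested genes that rose and fell. The median of -0.05 was -0.09 without phod2 replicate 3, -0.08 without phod2 replicate 2, -0.03 without WT replicate 1 and -0.02 without phod2 replicate 1. BZIP63, a target of SnRK1, fell from 50.1 ± 0.894 to 34.4 ± 1.56 FPKM (-0.58 ± 0.04), BZIP53 fell by 0.27 ± 0.04 and BZIP44 rose by 0.47 ± 0.10 on the log2 scale. Of 6 SnRK1 subunit genes, the catalytic KIN11 (0.14 ± 0.06, adjusted p = 0.0296, edgeR) and the beta subunit AT4G16360 (0.17 ± 0.06, adjusted p = 0.0135) rose. KIN11 missed the threshold without WT replicate 1 or 3 or phod2 replicate 1 (adjusted p = 0.108, 0.231 and 0.103) and in DESeq2 (0.0914), and AT4G16360 without WT replicate 2 or 3 or phod2 replicate 1 (0.056, 0.0811 and 0.105).

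**Figure D4:**
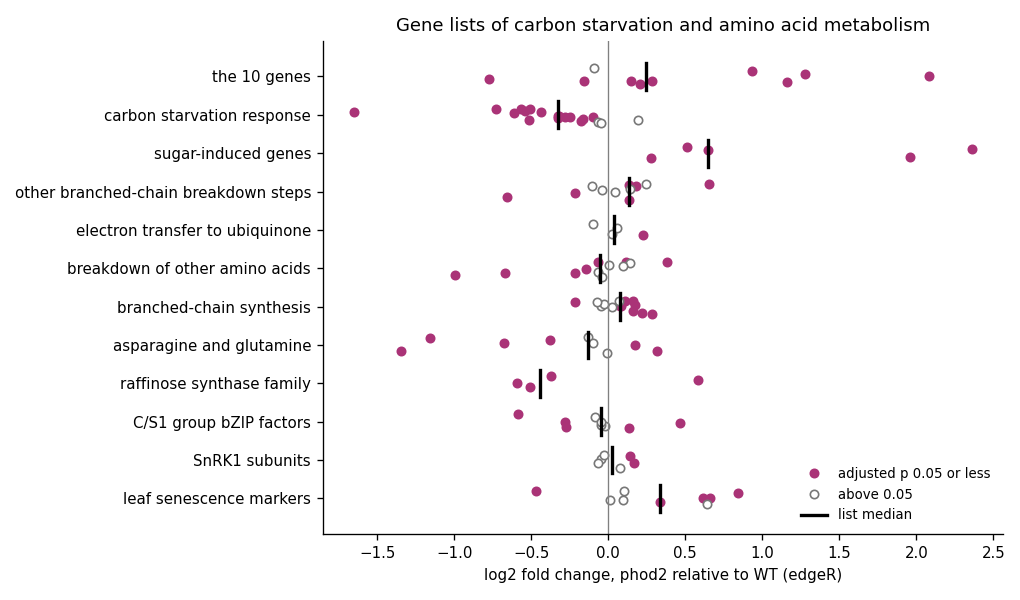
Log2 fold change (phod2 relative to WT, edgeR) of every tested gene in the 10-gene set and 11 related lists; filled points have an adjusted p of 0.05 or less, open points do not, and bars mark list medians. The carbon starvation list has its median at -0.32 and the sugar-induced list at 0.65.

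The 250 bases before the annotated start of a gene were read from the TAIR10.1 assembly for all 10 genes and searched on both strands for ACGTG, a core that bZIP factors bind. It was present before ASN1, BCAT2, DIN4 and DIN10, 4 of the 10, and before 22.9% of 27443 protein-coding genes. The full G-box CACGTG, which contains that core, was present before ASN1 alone among the 10 and before 6.49% of all. ACTCAT was before none of the 10 (12.3% of all genes) and TATCCA before ASN1 (13.6%). The sequences of ASN1, BCAT2 and DIN10 show the core in genes that rose and in a gene that fell, and that of SEN1 a gene that rose with no match in this window. Each is written 5′ to 3′ on the strand of its gene and ends at the last base before the start, and capitals mark ACGTG or its reverse complement.
ASN1 (chr3:17441432-17441681, minus strand): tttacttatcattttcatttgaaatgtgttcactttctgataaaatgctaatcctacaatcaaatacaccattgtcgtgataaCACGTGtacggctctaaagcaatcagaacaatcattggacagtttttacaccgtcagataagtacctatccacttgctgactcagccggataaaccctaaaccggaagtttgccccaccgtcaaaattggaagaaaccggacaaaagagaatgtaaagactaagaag
BCAT2 (chr1:3287837-3288086, plus strand): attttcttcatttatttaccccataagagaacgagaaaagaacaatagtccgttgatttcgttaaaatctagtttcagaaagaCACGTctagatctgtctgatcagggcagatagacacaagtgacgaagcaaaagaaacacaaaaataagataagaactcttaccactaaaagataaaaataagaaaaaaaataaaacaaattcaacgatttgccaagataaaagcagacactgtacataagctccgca
DIN10 (chr5:6833314-6833563, plus strand): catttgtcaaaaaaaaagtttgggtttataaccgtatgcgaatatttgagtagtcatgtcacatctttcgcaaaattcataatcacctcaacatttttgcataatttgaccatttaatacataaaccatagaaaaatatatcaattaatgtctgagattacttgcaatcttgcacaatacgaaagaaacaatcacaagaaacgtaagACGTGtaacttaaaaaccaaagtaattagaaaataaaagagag
SEN1 (chr4:16944628-16944877, plus strand): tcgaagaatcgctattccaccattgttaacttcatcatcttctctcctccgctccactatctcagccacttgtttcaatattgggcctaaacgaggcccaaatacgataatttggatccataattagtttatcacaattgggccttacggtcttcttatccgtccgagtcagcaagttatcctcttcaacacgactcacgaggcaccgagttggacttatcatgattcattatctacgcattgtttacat
The core lay 167 bases before the start in ASN1 and in BCAT2, and 43 bases before it in DIN10. A match in letters describes the sequence and does not show binding.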

How the data were processed

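RNA of seedlings was sequenced in 3 WT and 3 phod2 libraries, grouped by the sample titles. The deposited table holds whole-number counts per gene and library, per the file headers. It also holds FPKM, per the file headers, which equal the count over exonic gene size and library total to within 0.005. Aligner, counter and strand setting: not given in the sources used here. A mouse build, mm10, appears in the submitters' processing notes, but the identifiers are those of Arabidopsis. In TAIR10.1, 32531 of the 32833 genes have the start and end of the table, all 10 described genes among them, and sequence was read from that assembly (RefSeq).

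Counts were tested with edgeR 4.0.16 (filterByExpr, TMM, glmQLFit and glmQLFTest, 2-sided, genotype as the only term) in R 4.3.3, checked on simulated data. A gene passed at a Benjamini-Hochberg adjusted p of 0.05 over all 20169 tested genes. "Rose" and "fell" mean that, and the 2-fold rule is the study's. Depth was 17319308 to 22417595 counts. Within a genotype, no pair of libraries agreed within sampling noise (chi-square over degrees of freedom, 1.57 to 2.07). The labels do not name separate cultures, so p-values reflect only the spread between the libraries at hand, which may be technical.

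The 10 genes, the lists and the named genes (up to 3 with the lowest adjusted p per list, the 10 genes, the 3 genes of at least 5 FPKM closest to ASN1, and relatives of the 10, the last chosen after values were seen) were chosen with earlier results of these data known. Transcripts were compared by blastn (BLAST 2.17.0). Alternatives were DESeq2 1.42.0, limma 3.58.1, other scalings and filters, a replicate block and each library left out.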

Additional observations from a re-analysis of the deposited data

How the results depend on the processing

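Over the 10 genes, 147 of 149 values under the alternatives kept their direction and their side of the threshold, and none changed direction; the exceptions were IVD on library totals and BCE2 without WT replicate 1, given above. Of 549 values for the other named genes, 534 kept both and 15, for KIN11, AT4G16360 and STS, missed the threshold. PRODH2, LIP1P and the 3 genes closest to ASN1 were not among these. Of 225 values for list medians, 171 stayed within the SD between libraries of a genotype and 54 moved beyond it. The raffinose synthase family median ran from -0.46 to 0.04, against -0.44. The number of the 10 called at 2-fold was 3, and 1 by limma on log2(FPKM + 1), where DIN2 and BCAT2 fell short because the pseudocount shrinks folds of low genes. It was 2 where a gene needed 5 FPKM in at least 3 libraries, a filter that DIN2 did not pass and BCAT2 passed only by its phod2 libraries. Tested against 2-fold (glmTreat), 2 of the 10 passed, ASN1 and DIN2. Over all genes the 1515 called at 2-fold became 619 by limma on log2(FPKM + 1), 510 under that 5 FPKM filter, with fewer genes tested, and 743 with glmTreat. On library totals without TMM, 5476 of 9796 calls by adjusted p were higher, against 4214 of 9172. With each library left out in turn, 9 to 10 of the 10 genes passed the adjusted p, and 8 did on library totals and, with DIN2 not tested, under the 5 FPKM filter. WT and phod2 libraries with the same number shared only the number (correlations of deviations -0.02, 0.01 and -0.01), and with a replicate block 9 of the 10 genes, and 3 at 2-fold, were called, and 8965 genes in all. The median log2 fold change of the 10 genes ran from 0.21 to 0.29 and that of the carbon starvation list from -0.33 to -0.28. The median of the sugar-induced list was 0.39 under the 5 FPKM filter, against 0.65, and that of branched-chain synthesis 0.12 on library totals and by limma, against 0.08. Low counts limit DIN2, BAM5 and GPT2, which passed the low-count filter only with their phod2 libraries.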

Other observations

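Of 11 leaf senescence markers 9 were tested, 4 rose and 1 fell by edgeR, where 20.9% of all tested genes rose and 24.6% fell. The median log2 fold change was 0.34, and 0.10 among the list's genes that reached 5 FPKM in at least 3 libraries. SAG21, a late embryogenesis protein gene of stress and senescence, rose from 86.6 ± 0.887 to 136.7 ± 3.46 FPKM (SD, n = 3 each, log2 fold change 0.62 ± 0.03), and NYC1, the chlorophyll b reductase of chlorophyll breakdown, from 123.4 ± 1.35 to 160.7 ± 3.25 FPKM (0.34 ± 0.03). SAG20 fell from 65.1 ± 1.96 to 48.4 ± 4.07 FPKM (-0.47 ± 0.04). SAG12, the protease gene that marks late leaf senescence, had no count in any of the 6 libraries.

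Among 13308 genes with a mean of at least 5 FPKM, those whose log2 CPM lay closest to ASN1 over the 6 libraries, each gene centred on its own mean, were ABCG19, an ABC transporter gene (Euclidean distance 0.114), the sulfolipid synthesis gene SQD1 (0.132) and AT1G65370 (0.147). This likeness rests mostly on the single step between the genotypes, which a profile over 2 groups cannot resolve further.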
